A study of Rattus norvegicus with 24 samples.

Results

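The miR-17-92 and miR-106b-25 clusters were followed in rat lung through the main mature arm of each of their hairpins. These were rno-miR-17-5p, rno-miR-18a-5p, rno-miR-19a-3p, rno-miR-20a-5p, rno-miR-19b-3p and rno-miR-92a-3p of miR-17-92, and rno-miR-106b-5p, rno-miR-93-5p and rno-miR-25-3p of miR-106b-25 (rno for rat, left out from here on). The 9 miRNAs were taken by name from the 719 rat miRNAs on the array. All 9 were well above background on 24 of 24 arrays and stayed among the 283 miRNAs that passed the filter on dim probes. Each was read by 2 probes, and each probe was printed in 10 spots of an array.

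The lungs came from 24 Fischer-344 rats, with 1 single-colour array per animal. The control rats breathed filtered clean air, and the other groups inhaled hexanal, an aldehyde formed when fats oxidise, at 600, 1000 or 1500 ppm. Each of the 4 groups held 6 rats, 3 males and 3 females. The rats were about 7 to 8 weeks old, and exposure ran for 4 h a day, 5 days a week, over 5 weeks per the labels. The titles of the samples give the doses in ppm while the protocol gives the same figures in mg/m3, so ppm is used here as the name of a dose. RNA was taken from lung tissue as a whole, so that fewer cells of a type and less RNA per cell cannot be told apart.

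The arrays lay on 3 glass slides of 8 arrays, and slide was bound up with sex and dose. The 8 rats of slide 1 were all males, namely every control male, every 600 ppm male and 2 of the 1000 ppm males. Slide 2 was mixed: 3 males had inhaled 1500 ppm and 1 male 1000 ppm, and beside them lay all control females and a single 600 ppm female. The 8 rats of slide 3 were all females, 2 exposed to 600 ppm, 3 to 1000 ppm and 3 to 1500 ppm. Within neither sex did a slide carry the control together with the highest dose. Between 221 and 306 miRNAs were well above background on an array, and no spot was saturated. The label of lung was checked by the endothelial miR-126a-3p and miR-126a-5p and the epithelial miR-200a-3p, miR-200b-3p and miR-200c-3p, all above background on 24 arrays. Markers of blood cells were also measured, as the erythroid miR-451-5p and miR-144-3p and the leukocyte miR-223-3p, miR-142-3p, miR-142-5p and miR-150-5p were above background on 24 arrays. The erythroid miR-144-5p was above background on 10. The skeletal muscle miR-206-3p and the neuronal miR-124-3p were above background on none. Markers of other tissues were present too, with the muscle miR-133b-3p above background on 24 arrays, miR-133a-3p on 21 and miR-1-3p on 18, and the liver miR-122-5p on 21.

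MicroRNAs are short RNAs that guide Argonaute proteins to messenger RNAs, mainly through the seed near their 5′ end, and lower the translation and stability of these targets. The miR-17-92 cluster is a single primary transcript driven by MYC and E2F factors and is known as an oncogenic cluster that favours cell cycle entry and survival. Its loss in mice leaves the lungs underdeveloped, and its level falls as the lung matures. The miR-106b-25 cluster is a paralogue that lies within the Mcm7 gene, which encodes a subunit of the replicative helicase. Known targets of the families include the cell cycle inhibitor p21, the proapoptotic protein BIM and members of the E2F family.

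The mature sequences are shown because the 9 miRNAs fall into few seed families and some differ by very few bases, which bears on what an array probe can separate. They are from RefSeq (assembly GRCr8), 5′ to 3′, with the seed (bases 2 to 8) in capitals. miR-17-5p, miR-20a-5p, miR-106b-5p and miR-93-5p share the seed AAAGUGC.
rno-miR-17-5p: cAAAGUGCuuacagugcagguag
rno-miR-20a-5p: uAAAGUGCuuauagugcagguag
rno-miR-106b-5p: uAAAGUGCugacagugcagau
rno-miR-93-5p: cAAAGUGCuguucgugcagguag
miR-18a-5p has the seed AAGGUGC, which differs from that of miR-17-5p at a single base.
rno-miR-18a-5p: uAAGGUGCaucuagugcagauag
miR-19a-3p and miR-19b-3p share the seed GUGCAAA.
rno-miR-19a-3p: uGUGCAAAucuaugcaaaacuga
rno-miR-19b-3p: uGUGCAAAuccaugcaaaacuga
miR-92a-3p and miR-25-3p share the seed AUUGCAC.
rno-miR-92a-3p: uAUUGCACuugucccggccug
rno-miR-25-3p: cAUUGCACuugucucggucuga
Both of the following miRNAs lie outside the clusters and share a seed with members, miR-20b-5p with miR-17-5p and miR-32-5p with miR-92a-3p, and are used for comparison.
rno-miR-20b-5p: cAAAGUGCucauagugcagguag
rno-miR-32-5p: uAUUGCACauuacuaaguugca

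With positions counted from the 5′ end and the first-named miRNA's base first, miR-19a-3p and miR-19b-3p differed at 1 of 23 bases (U11C). miR-17-5p and miR-20a-5p differed at 2 of 23 bases (C1U and C12U), and miR-92a-3p and miR-25-3p at 3 of the 21 bases compared (U1C, C14U and C18U). miR-20b-5p, whose gene lies on the X chromosome, differed from miR-17-5p at 2 of 23 bases (U10C and C12U). Signals of such near-identical miRNAs may be shared between probes, and the files give no measure of it, so the members are not independent measurements. The GC content of the mature sequences ran from 34.8% for miR-19a-3p to 57.1% for miR-92a-3p.

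The 6 hairpins of miR-17-92 lay within 785 bases of chromosome 15 on the plus strand (GRCr8, chr15:98587848-98588632). The annotated arms and hairpins of miR-106b-25 lay within 483 bases of chromosome 12 on the minus strand (GRCr8, chr12:22156641-22157123), and all 3 loci were inside the span of Mcm7. The mature sequences of miR-17-5p, miR-19b-3p and miR-92a-3p were also encoded, base for base, by the Mir106a, Mir19b2 and Mir92a2 hairpins of the X chromosome (GRCr8, chrX:137342777-137343647, minus strand). The array reads mature sequence, so for these 3 members the output of the X-linked copies was included. Mir106b is shown by its mature arms in the map of the hairpins.

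**Figure D1:**
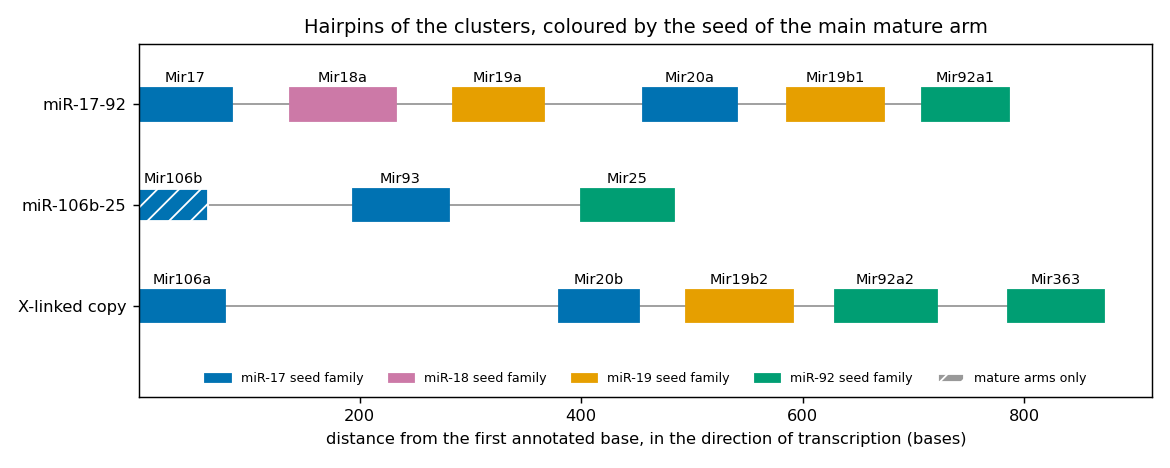
Hairpins of miR-17-92, miR-106b-25 and the X-linked cluster as boxes, placed by distance in bases from the first annotated base in the direction of transcription and coloured by the seed of the main arm (the hatched box of Mir106b spans its mature arms). The 6 hairpins of miR-17-92 fill 785 bases, the loci of miR-106b-25 483 bases and the X-linked hairpins 871 bases, and each cluster mixes seed families.

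The first question was whether hexanal changed the level of any member. With both sexes pooled, no member differed between a dose group and the control past the test. Levels are given as log2 of the scaled spot intensity, a relative unit that orders rats for 1 miRNA and cannot be set against the level of another miRNA. In the seed family of miR-17, miR-20a-5p had a lowest, median and highest level of 8.50, 8.64 and 8.77 in the control lungs. They were 8.41, 8.67 and 8.83 at 600 ppm, and 8.46, 8.62 and 8.82 at 1000 ppm. At 1500 ppm they were 8.68, 8.76 and 8.90. The 1500 ppm rats lay in the upper part of the scale and overlapped every other group.

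miR-17-5p, the first miRNA of the miR-17-92 transcript, had group means between 7.31 ± 0.06 (SD, n = 6) in the control and 7.38 ± 0.09 at 600 ppm. miR-106b-5p had control levels of 8.92, 9.10 and 9.27 (lowest, median and highest) and levels of 9.04, 9.16 and 9.29 at 1500 ppm. miR-93-5p had group means between 7.56 ± 0.07 in the control and 7.62 ± 0.05 at 600 ppm. All dose groups overlapped the control in these 4 miRNAs.

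miR-92a-3p, of the miR-92 seed family that is known for its role in endothelial cells, had the widest spread of group means. Its lowest, median and highest levels were 8.27, 8.67 and 9.03 in the control, 8.17, 8.64 and 9.04 at 600 ppm and 8.21, 8.79 and 8.98 at 1000 ppm. At 1500 ppm they were 8.74, 8.85 and 9.01. The control and the lower doses each fell into a low and a high set of rats, with no rat between 8.44 and 8.74, whereas the 1500 ppm rats all lay in the high set. The low set was the 8 rats of slide 1, which held no 1500 ppm rat. miR-25-3p of the same seed family had control levels of 8.71, 8.80 and 8.87 and levels of 8.73, 8.77 and 8.95 at 1500 ppm.

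The group means of the remaining members lay close together. miR-19b-3p had group means between 10.26 ± 0.09 (SD, n = 6) at 1000 ppm and 10.32 ± 0.07 at 600 ppm, and miR-19a-3p between 7.61 ± 0.07 and 7.65 ± 0.07 at the same doses. miR-18a-5p had group means between 4.67 ± 0.12 at 600 ppm and 4.72 ± 0.17 at 1500 ppm. The span between the lowest and the highest group mean was 0.04 for miR-19a-3p, miR-18a-5p and miR-25-3p, and 0.23 for miR-92a-3p. In 0 of 9 members did any dose group lie apart from the control, where over the whole array 1 of 283 miRNAs (0.353%) did so at 1500 ppm.

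**Figure D2:**
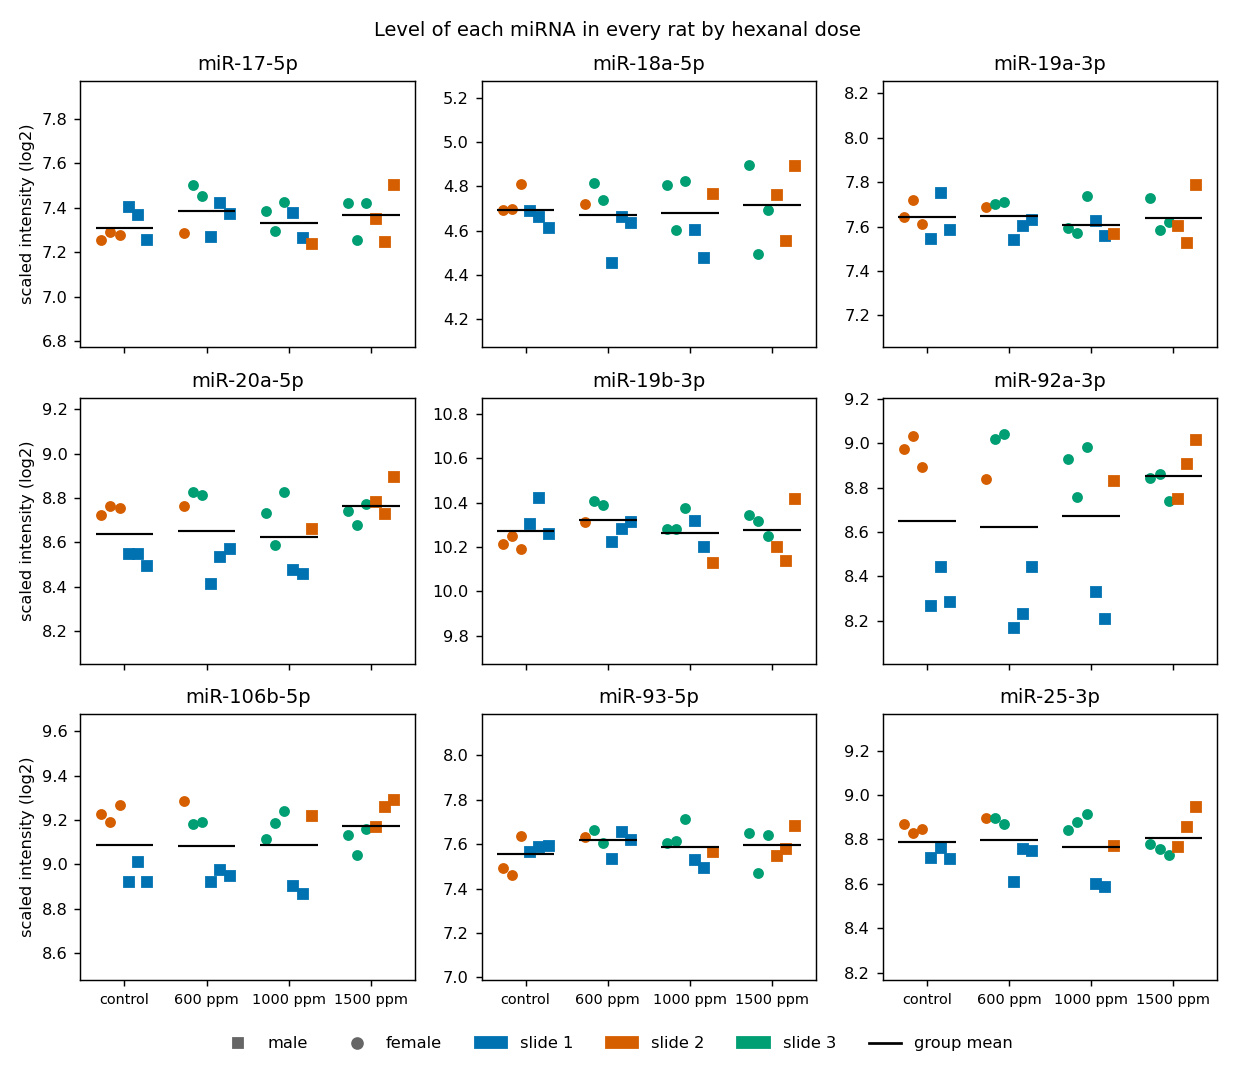
Log2 scaled intensity of each member (vertical axis, 1.2 log2 units in every panel) in the 24 rats by dose group, with squares for males, circles for females, colours for slides and black lines for group means. The blue squares of slide 1 lie apart and low for miR-92a-3p, miR-20a-5p and miR-106b-5p, while the group means of the 9 members differ by 0.04 to 0.23.

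At 600 ppm the differences from control ran from -0.02 to 0.08 over the 9 members on the log2 scale, and at 1000 ppm from -0.03 to 0.03. At 1500 ppm they ran from -0.00 for miR-19a-3p to 0.20 for miR-92a-3p, with miR-20a-5p at 0.13 and miR-106b-5p at 0.09. The test (limma, Benjamini-Hochberg over 283 miRNAs) called 0 of 9 members at each dose, beside 0% of all miRNAs at 600, 1000 and 1500 ppm. At an unadjusted p below 0.05 it called 0 of 9 members at each dose, beside 1.77% of all miRNAs for the lowest dose, 6.01% for the middle and 9.19% for the highest. The comparison of all 4 groups at once called 0 of 9 members and 0% of all miRNAs adjusted, and 0 of 9 members and 5.3% of all miRNAs unadjusted. The slope on dose called 0 of 9 members and 0% of all miRNAs adjusted, and 0 of 9 members and 10.2% of all miRNAs unadjusted.

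A missed threshold does not show that the levels were equal, and the 95% intervals give the size that a difference could have under each fit. Without miR-92a-3p, the intervals at 1500 ppm held fold changes between 0.91 and 1.22 for the other 8 members. For miR-92a-3p the interval ran from a fold change of 0.897 to 1.48. With slide as a block and no term for sex, the intervals of all 9 members at 1500 ppm lay between 0.835 and 1.11. Within neither sex did a slide carry the control together with 1500 ppm. The intervals of both fits therefore do not cover what sex and slide may add or hide, and larger differences are not excluded. The difference of miR-92a-3p at 1500 ppm was -0.12 ± 0.07 with the block (SE, adjusted p = 0.535) against 0.20 ± 0.17 without it (adjusted p = 0.613), and the sign turned. The block also turned the sign of the 1500 ppm difference for miR-18a-5p, miR-19b-3p, miR-106b-5p and miR-25-3p, none of which passed the test in either fit.

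The design held both sexes, and the second question was whether males and females differed. Male lungs were lower than female lungs in 4 of 9 members, beside 43.8% of all miRNAs called in either direction. The difference was -0.42 ± 0.09 (SE) for miR-92a-3p (adjusted p = 0.00136), -0.16 ± 0.04 for miR-20a-5p (adjusted p = 0.00865), -0.15 ± 0.05 for miR-106b-5p (adjusted p = 0.0217) and -0.11 ± 0.04 for miR-25-3p (adjusted p = 0.0357). All 9 differences were below 0, though those of miR-17-5p, miR-19b-3p and miR-93-5p turned above 0 with the percentile taken over all probes, and 36.7% of all miRNAs were above 0. The call for miR-92a-3p stood under each scaling, filter and probe summary tried (adjusted p between 0.00109 and 0.0322), but those of miR-20a-5p, miR-106b-5p and miR-25-3p were lost when the arrays were scaled to a percentile over all probes (adjusted p between 0.179 and 0.401) or by quantiles (between 0.11 and 0.294), and their signs turned in the series table (0.06, 0.02 and 0.07).

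Sex and slide were nearly the same split, since 8 of 12 males lay on slide 1 and no female did. Fitted with slide as a block, the sex test called 0 of 9 members, beside 3.53% of all miRNAs. The differences of miR-92a-3p, miR-20a-5p, miR-106b-5p and miR-25-3p were then 0.10 ± 0.11, 0.06 ± 0.08, 0.06 ± 0.06 and 0.10 ± 0.07 (SE), all with the opposite sign. Beyond this fit, sex and slide cannot be told apart for these 4 miRNAs.

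The dose response differed between the sexes in the same 4 members by the interaction test, beside 25.1% of all miRNAs. The interaction gave F = 7.95 for miR-92a-3p (adjusted p = 0.0143), F = 6.71 for miR-106b-5p (adjusted p = 0.0199), F = 6.35 for miR-25-3p (adjusted p = 0.0209) and F = 5.48 for miR-20a-5p (adjusted p = 0.0335). At 1500 ppm the difference from control was greater in males than in females by 0.71 ± 0.17 (SE) for miR-92a-3p and by 0.22 ± 0.08 for miR-25-3p. The interaction with slide as a block called 0 of 9 members, beside 0% of all miRNAs, and F was 0.91 for miR-92a-3p (adjusted p = 0.886). The slide terms of that fit rested on 1 male and 1 female of slide 2, at 1000 and 600 ppm. A missing call there cannot separate dose from slide. The interaction calls also depended on the processing, as 1 of the 4 members was called with total gene signal, miR-92a-3p, and none with normexp background correction.

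Among males, the members behind this were higher at 1500 ppm than in the control. The control females, also on slide 2, lay near the 1500 ppm males. Their means were 8.97 against 8.89 in those males for miR-92a-3p and 9.23 against 9.24 for miR-106b-5p. For miR-20a-5p they were 8.75 against 8.80, and for miR-25-3p 8.85 against 8.86. In males, miR-92a-3p was 8.27, 8.44 and 8.28 in the 3 controls and 8.75, 8.91 and 9.01 in the 3 rats at 1500 ppm. miR-20a-5p was 8.55, 8.55 and 8.50 in the controls against 8.78, 8.73 and 8.90 at 1500 ppm, and miR-106b-5p was 8.92, 9.01 and 8.92 against 9.17, 9.26 and 9.29. In these 3 miRNAs, and in miR-25-3p, each male at 1500 ppm exceeded each control male. Such a lack of overlap was seen in 4 of 9 members and in 56.5% of all miRNAs.

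The difference between 1500 ppm and control males was 0.56 ± 0.12 (SE) for miR-92a-3p (adjusted p = 0.00163), 0.27 ± 0.07 for miR-20a-5p (adjusted p = 0.00399) and 0.29 ± 0.07 for miR-106b-5p (adjusted p = 0.00462). These 3 of 9 members were called, beside 36% of all miRNAs, and miR-25-3p was at 0.13 ± 0.06 (adjusted p = 0.0985). The number of members called depended on the processing, with 6 of 9 for the percentile over all probes or the brightest probe, 1 for total gene signal and 0 for normexp background correction. With the series table it was 8 of 9, all of them below control. All 3 control males lay on slide 1 and all 3 males at 1500 ppm on slide 2. When slide was a block the comparison called 0 of 9 members, beside 0% of all miRNAs, and the difference of miR-92a-3p was -0.00 ± 0.15 (adjusted p = 1). In that fit the slide term for these males rested on 1 rat, the 1000 ppm male of slide 2, set against the 1000 ppm males of slide 1. It carries that rat's own level, so the lost calls cannot separate dose from slide. In females, whose controls lay on slide 2 and whose 1500 ppm rats lay on slide 3, the comparison called 0 of 9 members and 0% of all miRNAs adjusted, and 0 of 9 members and 13.8% of all miRNAs unadjusted. The 9 differences in females ran from -0.15 for miR-92a-3p to 0.09 for miR-17-5p.

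**Figure D3:**
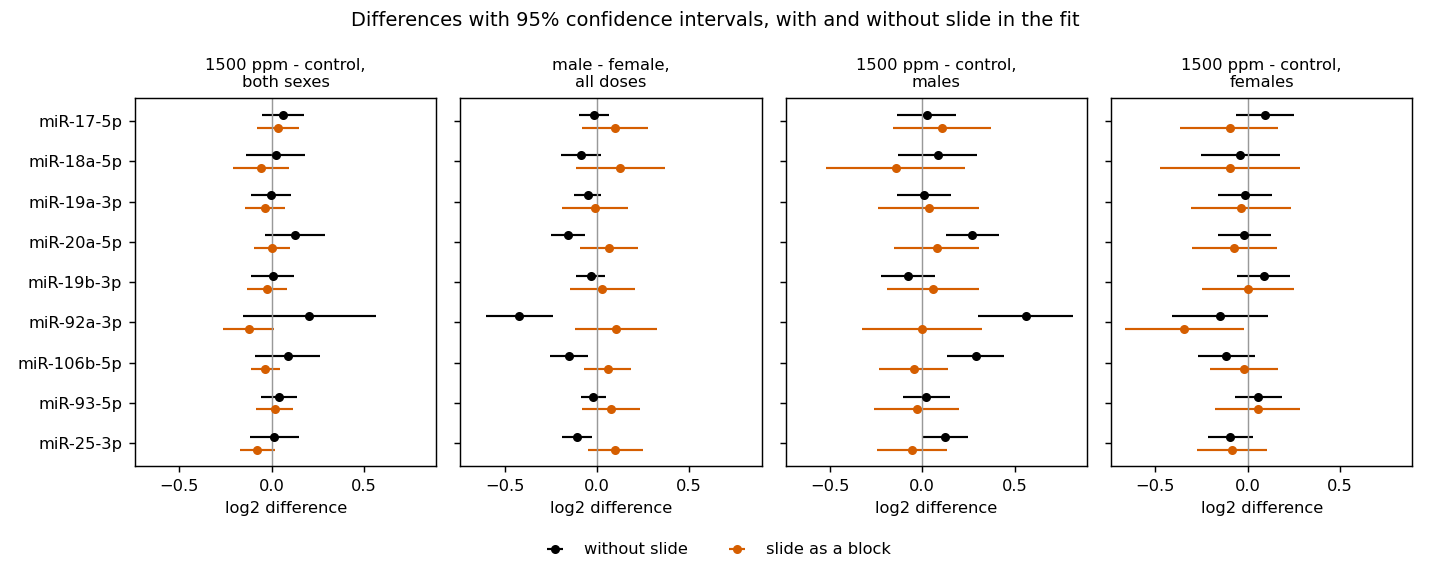
Log2 differences (horizontal axis) of the 9 members with 95% confidence intervals as bars, from the fits without slide (black) and with slide as a block (orange), for 1500 ppm against control, males against females, and 1500 ppm against control within each sex. The black points of miR-92a-3p stand at 0.20, -0.42, 0.56 and -0.15 and the orange points at -0.12, 0.10, -0.00 and -0.34. Within each sex the orange points take their slide term from 1 rat of slide 2.

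Rats of the same sex and dose that lay on different slides were compared next. Among the males at 1000 ppm, rats 11 and 12 lay on slide 1 and rat 13 lay on slide 2. miR-92a-3p was 8.33 and 8.21 in rats 11 and 12 and 8.83 in rat 13, and miR-106b-5p was 8.90 and 8.86 against 9.22. miR-20a-5p was 8.48 and 8.46 against 8.66, and miR-25-3p was 8.60 and 8.59 against 8.77. The rat on slide 2 was above both others in 6 of 9 members and below both in 2, where 45.6% of all 283 miRNAs were above both and 41% below both. The size of its difference stood at percentile 89 of all miRNAs for miR-92a-3p and between 4.95 and 66.4 for the other 8 members. Among the females at 600 ppm, rat 26 lay on slide 2 and rats 27 and 28 on slide 3. Rat 26 was below both others in 6 of 9 members and above both in 1, miR-106b-5p, where 47.7% of all miRNAs were below both and 32.9% above both. Its difference from their mean was -0.19 for miR-92a-3p and for miR-17-5p. A single rat gives no test, and its own level and the slide cannot be told apart in it. These same rats set the slide terms of the block fits of the interaction and of dose within each sex. This comparison is therefore not separate from those fits.

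A fit of dose, sex and slide put slide 2 above slide 1 by 0.70 ± 0.09 (SE) for miR-92a-3p, a size exceeded by fewer than 5% of the 283 miRNAs (percentile 95.1). The same difference was 0.36 ± 0.05 for miR-106b-5p, 0.29 ± 0.06 for miR-20a-5p, 0.25 ± 0.06 for miR-25-3p and 0.23 ± 0.09 for miR-18a-5p. It was 0.02 ± 0.07 for miR-17-5p, 0.06 ± 0.06 for miR-93-5p, 0.04 ± 0.07 for miR-19a-3p and -0.04 ± 0.07 for miR-19b-3p. The median size of the difference was 0.228 over the members and 0.249 over all 283 miRNAs. All 8 arrays of slide 2 exceeded all 8 arrays of slide 1 in miR-92a-3p, miR-106b-5p, miR-20a-5p and miR-25-3p. Slides 1 and 2 did not overlap in 4 of 9 members and in 28.3% of all miRNAs, while slides 2 and 3 did not overlap in 0 of 9 members and in 0.353%. Within the seed family of miR-17, slides 1 and 2 lay apart for miR-20a-5p and miR-106b-5p and overlapped for miR-17-5p and miR-93-5p, by the mean of the probes. The single probes of the overlapping members did shift, in opposite directions. From slide 1 to slide 2 those of miR-17-5p moved by 0.42 and -0.49, and those of miR-93-5p by 0.51 and -0.51.

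Within a slide, doses of the same sex could be compared directly, and no member was called. In the males of slide 1, 0 of 9 members were called at 600 ppm against control, beside 0% of all miRNAs, and 0 of 9 unadjusted beside 5.65%. In the same males at 1000 ppm against control, 0 of 9 members were called beside 0.707% of all miRNAs adjusted, and 1 of 9 beside 3.53% unadjusted. That member was miR-25-3p, at -0.14 ± 0.06 (SE, adjusted p = 0.977). In the females of slide 3, the comparison of 1000 ppm with 600 ppm called 0 of 9 members and 0% of all miRNAs adjusted, and 0 of 9 and 4.24% unadjusted.

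The comparison of 1500 ppm with 600 ppm in the females of slide 3 called 0 of 9 members and 0% of all miRNAs adjusted, and 2 of 9 and 13.8% unadjusted. The 2 were miR-92a-3p, at 8.84, 8.86 and 8.74 against 9.02 and 9.04 (-0.22 ± 0.09, adjusted p = 0.301), and miR-25-3p (-0.13 ± 0.06, adjusted p = 0.292). All 9 differences were below 0, where 31.4% of all miRNAs were above 0. The comparison of 1500 ppm with 1000 ppm called 0 of 9 members and 0% of all miRNAs adjusted, and 1 of 9 and 11% unadjusted, the 1 being miR-25-3p (-0.13 ± 0.05, adjusted p = 0.446). The slide 1 comparisons rested on 3 controls against 3 or 2 exposed males, and those of slide 3 on 2 or 3 females a dose.

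The 2 probes of a member are aimed at the same mature miRNA, and the next question was whether they told the same story. The gap between them on 1 array does not depend on scaling that array by a constant. For miR-93-5p the brighter probe stood above the dimmer by 0.69 to 0.84 on the 8 arrays of slide 1, by 1.68 to 1.86 on slide 2 and by 1.46 to 1.65 on slide 3. For miR-17-5p the gap was 0.76 to 0.92 on slide 1, 1.64 to 1.79 on slide 2 and 1.44 to 1.59 on slide 3. For miR-92a-3p it was 0.51 to 0.64 on slide 1 and 1.37 to 1.52 on slide 2, with a mean of 1.18 ± 0.05 (SD, n = 8) on slide 3. The gap of slide 1 did not overlap that of slides 2 and 3 in 7 of 9 members, all but miR-18a-5p and miR-19a-3p, and in 131 of the 215 miRNAs with 2 kept probes (60.9%).

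The difference between slides was smaller for the other members. The mean gap was 0.45 ± 0.02 (SD, n = 8) on slide 1 and 0.49 ± 0.04 on slide 2 for miR-19a-3p, and 1.01 ± 0.10 and 1.05 ± 0.10 for miR-18a-5p. For miR-20a-5p, where the gap was wider on slide 1, it was 0.93 ± 0.03 and 0.82 ± 0.03. Between these extremes lay miR-106b-5p, with 0.66 ± 0.02 and 1.08 ± 0.03, miR-25-3p, with 0.61 ± 0.02 and 1.16 ± 0.05, and miR-19b-3p, with 1.12 ± 0.03 and 1.37 ± 0.05. The change of the gap from slide 1 to slide 2 had a median of 0.425 over the 9 members and 0.283 over the 215 miRNAs with 2 kept probes. In size it stood at percentile 94.9 for miR-93-5p, 92.6 for miR-92a-3p and 92.1 for miR-17-5p.

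**Figure D4:**
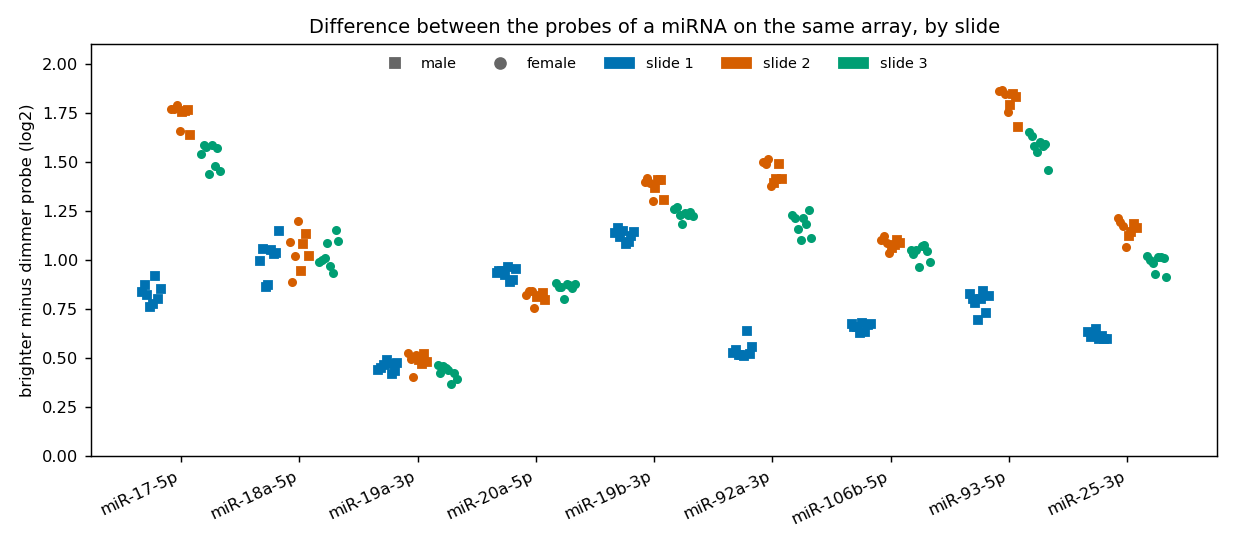
Log2 difference between the brighter and the dimmer probe of each member on each of the 24 arrays (vertical axis), by slide (colour) and sex (symbol). On slide 1 the mean gap is 0.83 for miR-17-5p, 0.54 for miR-92a-3p and 0.79 for miR-93-5p, on slide 2 it is 1.74, 1.45 and 1.81, and the male on slide 2 that was exposed to 1000 ppm lies with its slide.

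In 4 of 9 members the probes moved in opposite directions between slides 1 and 2, as they did in 83 of 215 miRNAs (38.6%). The probes of miR-93-5p went from 7.97 to 8.48 and from 7.18 to 6.67, and those of miR-17-5p from 7.76 to 8.17 and from 6.93 to 6.44 (slide means, n = 8 each). The mean of both probes was 7.57 on both slides for miR-93-5p, and 7.34 and 7.31 for miR-17-5p. miR-25-3p (8.99 to 9.43 and 8.38 to 8.27) and miR-19b-3p (10.85 to 10.92 and 9.73 to 9.54) made up the 4. In miR-92a-3p the brighter probe carried most of the slide difference, from 8.57 to 9.63, against 8.03 to 8.18 for the dimmer.

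Each probe was then tested on its own, with adjustment over 555 kept probes. By sex, 10 of 18 member probes were called beside 46.8% of all probes, by the interaction 9 of 18 beside 30.8%, and by 1500 ppm against control in males 10 of 18 beside 42.7%. In the 1500 ppm males the brighter probe of miR-93-5p was higher than in control males by 0.51 ± 0.11 (SE, adjusted p = 0.000981) and the dimmer probe was lower, at -0.47 ± 0.10 (adjusted p = 0.001). The brighter probe of miR-17-5p was at 0.46 ± 0.09 (adjusted p = 0.000841) and the dimmer at -0.41 ± 0.12 (adjusted p = 0.0089). In individual males, the brighter probe of miR-17-5p was 7.82, 7.80 and 7.67 in controls and 8.23, 8.13 and 8.32 at 1500 ppm, and the dimmer 6.98, 6.93 and 6.84 against 6.47, 6.36 and 6.68. The 1000 ppm male of slide 2 had 8.12 and 6.36, where the 1000 ppm males of slide 1 had 7.78 and 6.98, and 7.69 and 6.84.

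miR-20a-5p was the member whose probes were both called in the same direction in the 1500 ppm males, at 0.21 ± 0.07 (SE, adjusted p = 0.0199) and 0.33 ± 0.07 (adjusted p = 0.00112). For miR-92a-3p the brighter probe was at 1.02 ± 0.18 (adjusted p = 0.00036) and the dimmer at 0.11 ± 0.09 (adjusted p = 0.383), and for miR-106b-5p the values were 0.50 ± 0.10 (adjusted p = 0.000661) and 0.08 ± 0.06 (adjusted p = 0.339). Fitted with slide as a block, the comparison of these males called 0 of 18 member probes and 0% of all 555 probes adjusted, and 0 of 18 member probes and 8 of all probes at an unadjusted p below 0.05. The brighter and dimmer probes were then at -0.05 ± 0.11 (SE) and -0.01 ± 0.12 for miR-93-5p, and at 0.08 ± 0.12 and 0.13 ± 0.14 for miR-17-5p (adjusted p = 0.995 for each). Within slides no member probe was called, and the smallest adjusted p of the 18 probes over the 5 within-slide comparisons was 0.304. Over all 555 probes, 0.18% were called when 1000 ppm males of slide 1 were set against their controls and 0% in each of the other 4. At an unadjusted p below 0.05 those 5 comparisons called 0 to 3 of the 18 member probes and 15 to 83 of all probes.

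The SD among rats of the same slide, sex and dose was 0.05 for miR-106b-5p and miR-25-3p and 0.12 for miR-18a-5p, against a median of 0.12 over all miRNAs. Pearson correlations of the log2 levels over the 24 arrays are given as a description, since the arrays share slides, a common scaling and, for near-identical sequences, perhaps signal. As measured, r over the 36 pairs of members ran from -0.02 to 0.92 with a median of 0.55, where the median over all pairs of the 283 miRNAs was 0.06. The highest was between miR-20a-5p and miR-92a-3p (r = 0.92), and miR-92a-3p and miR-106b-5p, of different clusters, were at r = 0.90.

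After each slide was centred on its own mean the order changed. miR-19a-3p and miR-19b-3p, which differ at 1 base, then had the highest value (r = 0.88), followed by miR-17-5p and miR-20a-5p (r = 0.85) and by miR-106b-5p and miR-93-5p (r = 0.80). The pair of miR-92a-3p and miR-106b-5p was then at 0.37. The median was 0.66 over the 15 pairs within miR-17-92, 0.77 over the 3 pairs within miR-106b-25 and 0.47 over the 18 pairs between the clusters. As measured, the same medians were 0.59, 0.50 and 0.49.

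**Figure D5:**
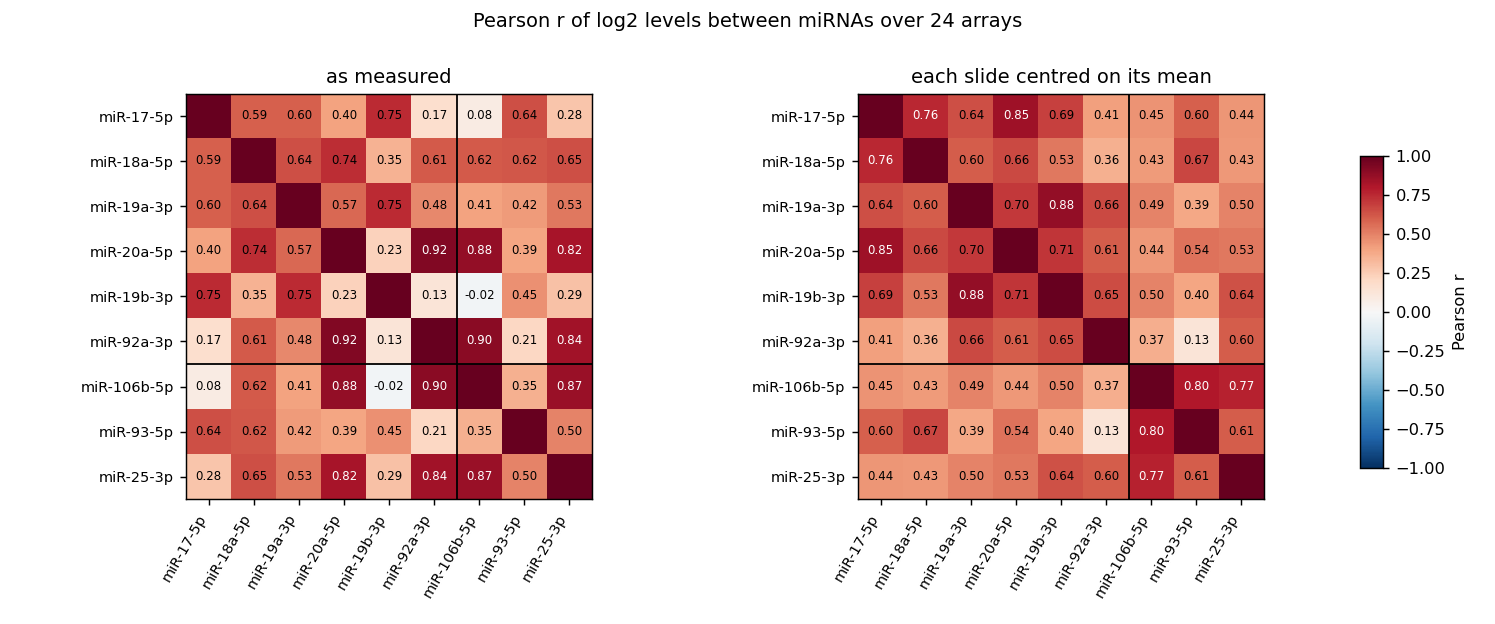
Pearson r between members over 24 arrays, as measured (left) and after each slide was centred on its mean (right), with black lines between the 2 clusters. Between the clusters the median r is 0.49 on the left and 0.47 on the right, and within miR-106b-25 it is 0.50 on the left and 0.77 on the right.

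Among the miRNAs other than the 9 members, those with profiles most like the mean standardised profile of miR-17-92 were miR-20b-5p (r = 0.90 over 24 arrays), miR-106b-3p (r = 0.75) and miR-532-3p (r = 0.75). After slide centring, miR-20b-5p (r = 0.88) and miR-106b-3p (r = 0.68) were still nearest. For miR-106b-25 they were miR-151-5p, miR-361-5p and miR-130a-3p (r = 0.86, 0.86 and 0.83), and after slide centring miR-130a-3p, miR-151-5p and miR-17-1-3p (r = 0.82, 0.76 and 0.73). Of these, miR-106b-3p and miR-17-1-3p are partner arms of cluster hairpins.

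The partner arms, which come from the other strand of the same hairpins, were mostly too dim to follow. Of the 15 names listed, 12 were on the array and 3 passed the filter, miR-17-1-3p, miR-20a-3p and miR-106b-3p. None of the 3 was called at any dose with both sexes pooled. In the 1500 ppm males miR-17-1-3p differed from control males by -0.36 ± 0.09 (SE, adjusted p = 0.00555), while miR-17-5p of the same hairpin was at 0.02 ± 0.08 (adjusted p = 0.839). The value of miR-17-5p is the mean of probes at 0.46 and -0.41. The dim miR-17-1-3p, with a control mean of 4.53, was read by 1 kept probe of 4. Whether the arms of this hairpin diverged was not tested. The difference of miR-17-1-3p with slide as a block was -0.17 ± 0.17 (adjusted p = 1).

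miRNAs that share a seed with members but lie elsewhere in the genome were followed next. Of the 7 listed, 3 were tested, miR-20b-5p, miR-363-3p and miR-32-5p, and none was called at any dose with both sexes pooled. miR-20b-5p, which resembles miR-17-5p and miR-20a-5p in sequence, differed between 1500 ppm and control males by 0.09 ± 0.06 (SE, adjusted p = 0.282). miR-32-5p, with the seed of miR-92a-3p, differed between 1500 ppm and control males by -0.92 ± 0.17 (adjusted p = 0.000603), opposite to miR-92a-3p. Its mean was 5.58 ± 0.09 (SD, n = 8) on slide 1, 4.72 ± 0.10 on slide 2 and 4.89 ± 0.17 on slide 3, and with slide as a block the difference was -0.04 ± 0.19 (adjusted p = 1).

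Markers of blood cells are given beside these comparisons. The summed scaled intensity of the erythroid list (3 of 4 tested) ranged from 2088.5 to 3162.8 on slide 1, from 1057.2 to 1878.8 on slide 2 and from 1415.7 to 2678.9 on slide 3. By dose it ranged from 1087.6 to 3162.8 in the control and from 1057.2 to 2428.8 at 1500 ppm. On this list, miR-144-5p lay near the lowest log2 level set in the processing (3.5), with means of 3.57, 3.63 and 3.65 on slides 1, 2 and 3. Erythroid miR-144-3p differed between 1500 ppm and control males by -1.20 ± 0.27 (SE, adjusted p = 0.00177) and miR-451-5p was at -0.61 ± 0.24 (adjusted p = 0.0545), against -0.42 ± 0.45 and -0.29 ± 0.43 with slide as a block (adjusted p = 1 for both). The leukocyte list (4 of 5 tested) ranged from 3203.0 to 4097.8 on slide 1, from 3184.1 to 4999.3 on slide 2 and from 3808.7 to 4727.5 on slide 3. In the same males the leukocyte miR-142-5p was called (-0.49 ± 0.14, adjusted p = 0.00858; -0.25 ± 0.24 with slide as a block, adjusted p = 1), whereas miR-142-3p, miR-150-5p and miR-223-3p were at -0.21, 0.14 and 0.24 (adjusted p between 0.147 and 0.334). The muscle list (3 of 4 tested) ranged from 154.8 to 385.5 in the control and from 165.4 to 571.0 at 600 ppm. At 1000 ppm it ranged from 189.5 to 1332.3 and at 1500 ppm from 128.1 to 1174.9. On slides 1, 2 and 3 it ranged from 169.6 to 571.0, from 128.1 to 781.1 and from 149.5 to 1332.3. Of the lung markers, the endothelial miR-126a-5p, read by 1 probe, was at 11.25 ± 0.06 (SD, n = 8) on slide 1 and 10.22 ± 0.09 on slide 2. In contrast, miR-126a-3p of the same hairpin was at 13.68 ± 0.10 and 13.62 ± 0.11. The epithelial miR-200a-3p, miR-200b-3p and miR-200c-3p were at 10.113, 9.785 and 8.415 on slide 1 and 10.099, 9.822 and 8.401 on slide 2. The part of cell makeup in the levels of the 9 members was not tested.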

How the data were processed

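Total RNA of 24 rat lungs was labelled with Cy3 and hybridised to Agilent rat miRNA arrays. The authors deposited 1 scanner file per array (Feature Extraction 11.5.1.1), whose processed spot intensity is background-subtracted within the array and not normalized between arrays, and a series table of total gene signal with 10131 of 17256 values (58.7%) set to 1. The study's methods describe other arrays and state no procedure for these. The header names build rn4, while sequences and coordinates are from RefSeq tables of GRCr8.

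Flagged and control spots were dropped. Intensities were divided by each array's 75th percentile over the 394 probes above background on all arrays, multiplied by 865.3, floored at 11.31 and put on the log2 scale. Spots, then probes, were averaged. Probes with most spots well above background on at least 6 arrays were kept (555 probes, 283 miRNAs). limma 3.58.1 in R 4.3.3 tested each comparison with Benjamini-Hochberg adjustment over all kept miRNAs (threshold 0.05). Slide was read from the headers and fitted as a block, a random block (duplicateCorrelation) and by comparisons within slides. In the block fits of the interaction and of dose within each sex, the slide terms rested on single rats of slide 2. They were the 1000 ppm male and the 600 ppm female. This holds for every miRNA and probe fitted in that way. Alternatives were other scalings, floors, filters, the brightest probe, total gene signal, the series table, sex as a covariate and each rat left out. Single-probe tests, slide contrasts and the comparisons within each sex were added after the data were seen.

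All 9 miRNAs were named by rule, as were the list members and the 3 miRNAs most correlated with each cluster. The miRNAs, lists and tests were chosen with earlier results of these data known. The labels name each array as a separate animal. In the fits without slide of pooled dose and of sex, the p-values rest on a spread that holds differences between slides as well as between rats. The interaction and the comparisons of dose within each sex differ in this. In most sets of a dose and sex, all rats lay on the same slide, so the spread is mainly between rats of a slide. The highest dose and the control of a sex lay on different slides. The p-values of these fits therefore make little allowance for a difference between slides. The number of rats limits the precision. The script was tested on simulated data.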

Additional observations from a re-analysis of the deposited data

Results flagged for a closer look

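In the 1000 ppm group, 1 rat stood apart from the other 5 for miR-19a-3p. Female 33 was at 7.74 where the others averaged 7.58 ± 0.03 (SD), and its gap to the nearest rat was 0.636 of the range of the group, above Dixon's critical value for 6 samples. It was the 1 such case among the 36 combinations of a member and a dose group, and chance gives about 1 in 20.

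The response to dose differed between the sexes for miR-92a-3p (F = 7.95, limma adjusted p = 0.0143), miR-106b-5p (F = 6.71, adjusted p = 0.0199), miR-25-3p (F = 6.35, adjusted p = 0.0209) and miR-20a-5p (F = 5.48, adjusted p = 0.0335), in 4 of 9 members and 25.1% of all miRNAs. The 4 are also the members in which all arrays of slide 2 lay above all arrays of slide 1. With slide as a block none of the 4 was called, and F was 0.91, 0.72, 2.65 and 0.79 in the same order. The part of dose in these differences cannot be told apart from that of slide.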

How the results depend on the processing

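With both sexes pooled, no member was called for dose at any of the 3 doses under any alternative run. Over all miRNAs, the count called at 1500 ppm went from 0 to 1 with the series table. The count for the slope on dose went from 0 to 1 with total gene signal, to 1 with the series table and to 3 with sex as a covariate. The sex count of 124 became 77 without a filter on dim probes, 52 with the series table, 10 with slide as a block, 5 with normexp and 0 with slide as a random block. The interaction count of 71 became 30 with total gene signal and 0 with normexp, with slide as a block and with slide as a random block. In males, the count of 102 at 1500 ppm became 197 with the series table, 7 with normexp, 2 with slide as a random block and 0 with slide as a block, and in females 0 became 4 with the percentile over all probes. Within slides, 0 became 62 for 600 ppm against control in males with the series table. The 2 calls for 1000 ppm against control in males became 0 with the percentile over all probes, quantile normalization, normexp, no filter, the strict filter, the lower floor, total gene signal and the series table. In females, 1000 against 600 ppm gave 1 without a filter, 1500 against 600 ppm gave 1 without a filter, 3 with the lower floor and 1 with total gene signal, and 1500 against 1000 ppm gave 2 with the lower floor. The cause of these changes was not tested.

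With each rat left out in turn, the counts ran from 96 to 133 for sex, 34 to 102 for the interaction, 0 to 2 for the slope, 91 to 112 for 1500 ppm in males and 0 to 1 in females. The interaction count was 34 without the 1500 ppm male 18 and 45 without the 1500 ppm female 36. Within slides they ran from 0 to 1 (600 ppm, males), 0 to 4 (1000 ppm, males), 0 to 3 (1500 against 600 ppm, females) and 0 to 6 (1500 against 1000 ppm, females), the last 2 highest without the 1500 ppm female 37. The interaction call was lost for miR-92a-3p without male 18 (F = 5.725), and for miR-20a-5p, miR-106b-5p and miR-25-3p in 8, 3 and 3 of the omissions (lowest F 3.68, 4.70 and 4.35). The sex call of miR-25-3p was lost in 13. At 1500 ppm the difference ran from -0.014 to 0.065 for miR-18a-5p, -0.031 to 0.021 for miR-19a-3p, -0.022 to 0.035 for miR-19b-3p and -0.013 to 0.031 for miR-25-3p.

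With the series table, differences turned sign at 1500 ppm against control to -0.149 for miR-17-5p, -0.231 for miR-18a-5p, -0.146 for miR-20a-5p, -0.254 for miR-19b-3p, -0.021 for miR-92a-3p, -0.154 for miR-106b-5p, -0.164 for miR-93-5p and -0.229 for miR-25-3p and, between males and females to 0.098 for miR-17-5p, 0.114 for miR-18a-5p, 0.158 for miR-19a-3p, 0.057 for miR-20a-5p, 0.158 for miR-19b-3p, 0.019 for miR-106b-5p, 0.081 for miR-93-5p and 0.066 for miR-25-3p. With sex and slide as covariates, differences turned sign at 1500 ppm against control to -0.028 for miR-17-5p, -0.138 for miR-18a-5p, -0.039 for miR-20a-5p, -0.042 for miR-19b-3p, -0.188 for miR-92a-3p, -0.071 for miR-106b-5p, -0.031 for miR-93-5p and -0.14 for miR-25-3p. With total gene signal, differences turned sign at 1500 ppm against control to -0.037 for miR-18a-5p, -0.061 for miR-19b-3p and -0.035 for miR-25-3p and, between males and females to 0.005 for miR-17-5p, 0.022 for miR-18a-5p, 0.065 for miR-19a-3p and 0.065 for miR-19b-3p. With slide as a block, differences turned sign at 1500 ppm against control to -0.058 for miR-18a-5p, -0.024 for miR-19b-3p, -0.123 for miR-92a-3p, -0.035 for miR-106b-5p and -0.077 for miR-25-3p and, between males and females to 0.1 for miR-17-5p, 0.127 for miR-18a-5p, 0.064 for miR-20a-5p, 0.028 for miR-19b-3p, 0.103 for miR-92a-3p, 0.057 for miR-106b-5p, 0.075 for miR-93-5p and 0.099 for miR-25-3p. With slide as a random block, differences turned sign at 1500 ppm against control to -0.046 for miR-18a-5p, -0.019 for miR-19b-3p, -0.074 for miR-92a-3p, -0.017 for miR-106b-5p and -0.064 for miR-25-3p and, between males and females to 0.04 for miR-17-5p, 0.018 for miR-18a-5p and 0.027 for miR-93-5p. With the percentile over all probes, differences turned sign at 1500 ppm against control to 0.054 for miR-19a-3p and, between males and females to 0.024 for miR-17-5p, 0.007 for miR-19b-3p and 0.021 for miR-93-5p. With normexp background correction, differences turned sign at 1500 ppm against control to 0.006 for miR-19a-3p. With quantile normalization, differences turned sign at 1500 ppm against control to -0.032 for miR-19b-3p and -0.025 for miR-25-3p and, between males and females to 0.051 for miR-17-5p, 0.005 for miR-19a-3p and 0.052 for miR-93-5p. With the dimmer probe alone, differences turned sign at 1500 ppm against control to -0.091 for miR-17-5p, -0.02 for miR-18a-5p, 0.008 for miR-19a-3p, -0.011 for miR-19b-3p, -0.003 for miR-106b-5p, -0.128 for miR-93-5p and -0.068 for miR-25-3p and, between males and females to 0.218 for miR-17-5p, 0.004 for miR-19b-3p, 0.253 for miR-93-5p and 0.017 for miR-25-3p.

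The median over all miRNAs moved by over 0.1 for sex with normexp (-0.20), total gene signal (0.12), the series table (0.22) and slide as a block (0.13), and at 1500 ppm with the series table (-0.27), whose values are not scaled between arrays. In males at 1500 ppm, 3 of 9 members were called with quantile normalization, no filter, the strict filter and the lower floor, as in the report. The interaction call was lost for miR-25-3p with quantile normalization (adjusted p = 0.0537), for miR-20a-5p without a filter (0.0524) and with the brightest probe (0.109), for miR-20a-5p, miR-106b-5p and miR-25-3p with total gene signal (0.643, 0.199 and 0.144) and with the series table (0.0604, 0.1 and 0.0646), and for miR-92a-3p and miR-106b-5p with the dimmer probe alone (0.265 and 0.246). It was gained for miR-17-5p and miR-93-5p with the brightest probe (0.0119 and 0.0107) and the dimmer probe alone (0.0331 and 0.00759), and for miR-19b-3p with the series table (0.0423). Single-probe results were chosen after seeing the data. No paired analysis was possible because the labels give each rat a number of its own.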
